A study of Homo sapiens with 9 samples.

Results

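The genes described here build melanosomes, the pigment organelles of melanocytes, and move them through the cell. A list of 41 genes was looked up by symbol in the count table, which holds 20263 Ensembl identifiers for HaCaT, a spontaneously immortalised human keratinocyte line. All 41 were found, and all 41 passed the filter on low counts. The genes were picked by name and role: the RAB27A transport complex and its relatives, the sorting GTPases RAB38 and RAB32, the BLOC complexes, the AP-1 and AP-3 adaptors, and genes for fusion and lysosome size. RNA was sequenced from 3 groups of 3 libraries each. The glabridin group was HaCaT cells given melanosomes and glabridin, an isoflavan from licorice root. The melanosome group was HaCaT cells given melanosomes alone, and the control group was HaCaT cells with neither agent, titled blank and labelled WT. The series was set up to ask how glabridin acts on the breakdown of melanosomes held by keratinocytes. The labels give neither the doses and exposure times nor where the melanosomes came from.

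As background, a melanosome is a lysosome-related organelle: it grows from endosomes that also serve the lysosome, and its pigment enzymes are delivered by adaptors that pick cargo at the endosome. AP-3, AP-1 and the BLOC complexes form these delivery routes, and loss of several of their subunits causes Hermansky-Pudlak syndrome, in which pigment is lacking. Mature melanosomes are carried to the tips of melanocytes by RAB27A on the organelle, melanophilin (MLPH) as the linker and myosin Va (MYO5A) as the motor on actin. From there they pass into keratinocytes, which hold them over the nucleus and break them down. Most of these genes are used by many cell types for endosomes and lysosomes, whereas MLPH and RAB38 are best known from pigment cells.

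Library totals ran from 39653425 to 46690787 counts. Levels below are CPM (counts scaled to a common depth, on TMM-scaled library sizes) in each library, and TPM as the authors deposited it where genes are set against each other. The keratinocyte markers KRT5, KRT14 and TP63 were present in every library, and the summed level of 16 keratinocyte markers ran from 10160 to 12890 CPM in glabridin, from 12200 to 13310 CPM in melanosome and from 15100 to 15310 CPM in control libraries. Transcripts that define melanocytes were present wherever melanosomes had been given. The 18 melanocyte markers summed to 1802 to 3545 CPM in glabridin libraries and 3232 to 3364 CPM in melanosome libraries, against 19.8 to 21.9 CPM in control libraries, where 7 of them (TYR, OCA2, SLC24A5, TRPM1, KIT, PAX3 and S100B) had 0 counts. All 18 were called higher in melanosome than in control libraries. Between glabridin and melanosome libraries 6 were called lower (DCT, MLANA, MITF, OCA2, SLC24A5 and EDNRB), none was called higher and 12 were not called. The glabridin libraries differed most among themselves: their chi-square per gene between replicates was 30.0 to 99.6, against 4.33 to 13.9 in melanosome and 3.14 to 5.28 in control libraries. The labels do not say that replicates were separate cultures, so the spread behind the p-values below may be technical. Each gene's spread was estimated once over all 9 libraries, so a p-value does not measure the spread of its 2 groups alone. A fit of only 2 groups called 5332 genes higher and 4830 lower in melanosome vs control, against 4098 and 4591 over 9 libraries. In glabridin vs melanosome it called 2486 and 2484, against 3301 and 2810. Such fits also had their own filter and scaling factors.

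Over the 41 genes the summed TPM was 1861 ± 46.9 in glabridin and 1906 ± 72.1 in melanosome libraries, against 1331 ± 10.1 in control libraries (SD, n = 3 each). TPM carries no TMM factors, so these levels are not on the scale of the fold changes below. On log2(TPM + 1) the median of all genes moved by 0.18 in melanosome vs control and by -0.18 in glabridin vs melanosome. The 2 sorting GTPases RAB38 and RAB32 together had 525.9 ± 17.8 TPM in glabridin and 411 ± 13 TPM in melanosome libraries, against 119 ± 2.05 TPM in control libraries. RAB38 had the highest TPM of all 41 genes in glabridin (369.7 ± 6.95) and melanosome (287 ± 11.2) libraries and ranked 6th in control libraries (78.6 ± 4.57). In control libraries the highest TPM belonged to AP1S1, the sigma subunit of AP-1 (148 ± 6.09). Adaptor subunits filled the other high ranks in control: AP3D1 stood at 101 ± 1.47, AP1B1 at 92.7 ± 3.20 and AP3S1 at 92.7 ± 0.486. At the low end, MLPH was listed at 0 TPM in all control libraries, and LYST was at 3.0 ± 0.116.

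**Figure D1:**
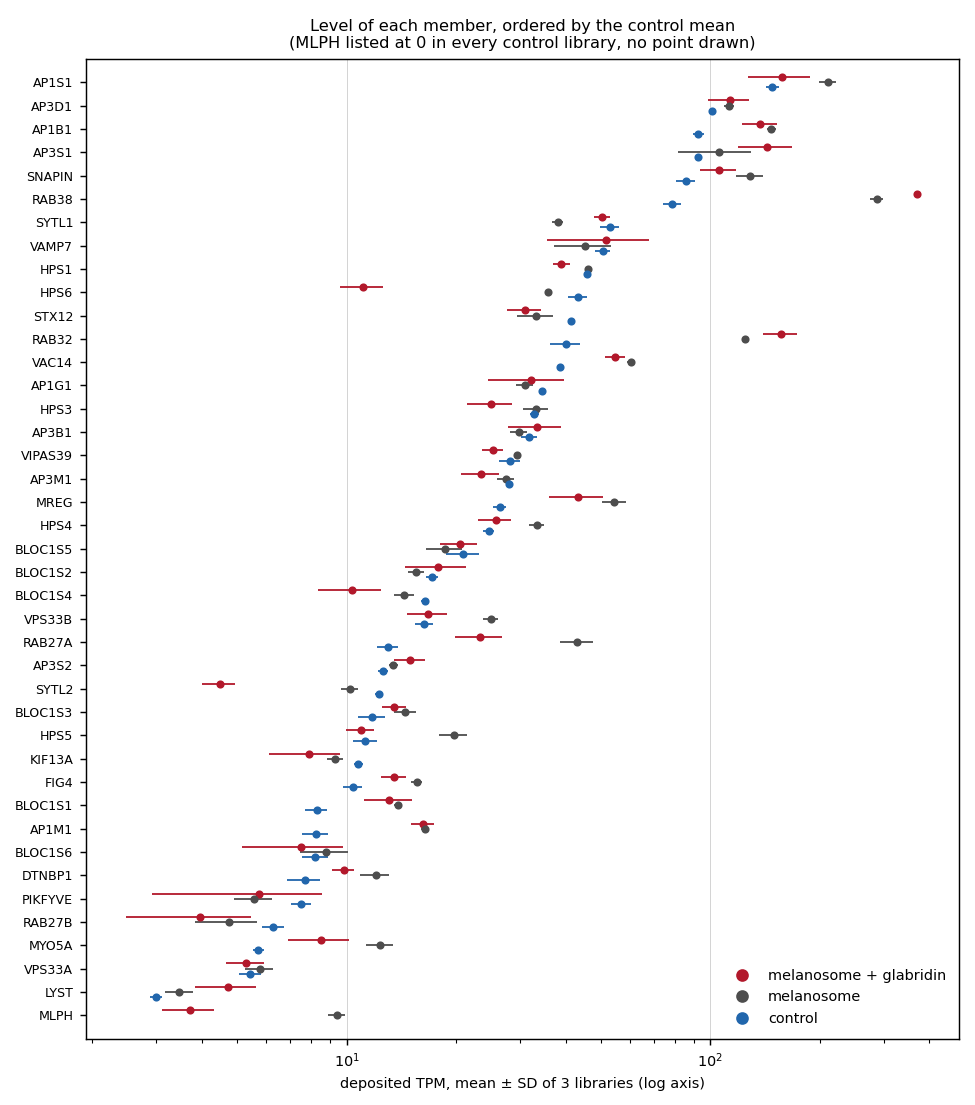
Deposited TPM of each gene on a log axis (points are means, bars the SD of 3 libraries) in glabridin, melanosome and control libraries, with genes ordered by the control mean. RAB38 and RAB32 lie to the right of their control points in both groups given melanosomes, HPS6 and SYTL2 in glabridin libraries lie to the left of their melanosome and control points, and MLPH has no control point because it was listed at 0.

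A gene was called when its edgeR quasi-likelihood test gave a Benjamini-Hochberg adjusted p under 0.05 over all 13912 genes tested. With melanosomes, 16 of the 41 genes were called higher than in control, 12 were called lower and 13 were not called. That is 68.3% of the genes, beside 62.5% of all genes tested (29.5% higher and 33.0% lower). At least a 2-fold rise was seen for 4 of them (RAB27A, MLPH, RAB38 and RAB32), where 13.8% of all genes were called and higher by that much, and none was called lower by 2-fold or more, as were 5.83% of all genes. The median log2 fold change was -0.02, beside -0.06 for all genes tested. Between glabridin and melanosome libraries 9 were called higher, 8 lower and 24 were not called, which is 41.5% beside 43.9% of all genes (23.7% higher and 20.2% lower). Of these 8, MLPH, SYTL2 and HPS6 were lower by 2-fold or more, as were 4.78% of all genes, and none was called higher by 2-fold or more, as were 3.24% of all genes. The median was -0.03, beside 0.01 for all genes. Between glabridin and control libraries 16 were called higher and 9 lower, 61.0% beside 70.3% of all genes (37.6% higher and 32.7% lower). The share called was above that of all genes with melanosomes over control and below it in both comparisons with glabridin. These differences in share were not tested.

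The balance of higher and lower calls depended on how libraries were scaled. Of all calls in melanosome vs control, 47.2% were higher with TMM factors and 66.0% with library totals alone, which moved the median of all genes by 0.17 on the log2 scale. In glabridin vs melanosome 54.0% of calls were higher with TMM factors and 29% with library totals alone, a move of the median by -0.18. All 16 genes called higher with melanosomes, and all 8 called lower with glabridin against melanosome, were also called under RLE factors, upper-quartile factors and library totals alone. Of the 12 called lower with melanosomes, 4 were called under all 3 of these scalings (SYTL1, SYTL2, HPS6 and STX12). Of the 9 called higher with glabridin against melanosome, 5 were (SYTL1, RAB38, RAB32, AP3S1 and LYST). No called gene changed sign under them. Leaving out 1 library cut the 12 lower calls in melanosome vs control to 6 without control replicate 1, control replicate 3 or melanosome replicate 2 and to 7 without glabridin replicate 1, and cut the 8 lower calls in glabridin vs melanosome to 5 without melanosome replicate 1.

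**Figure D2:**
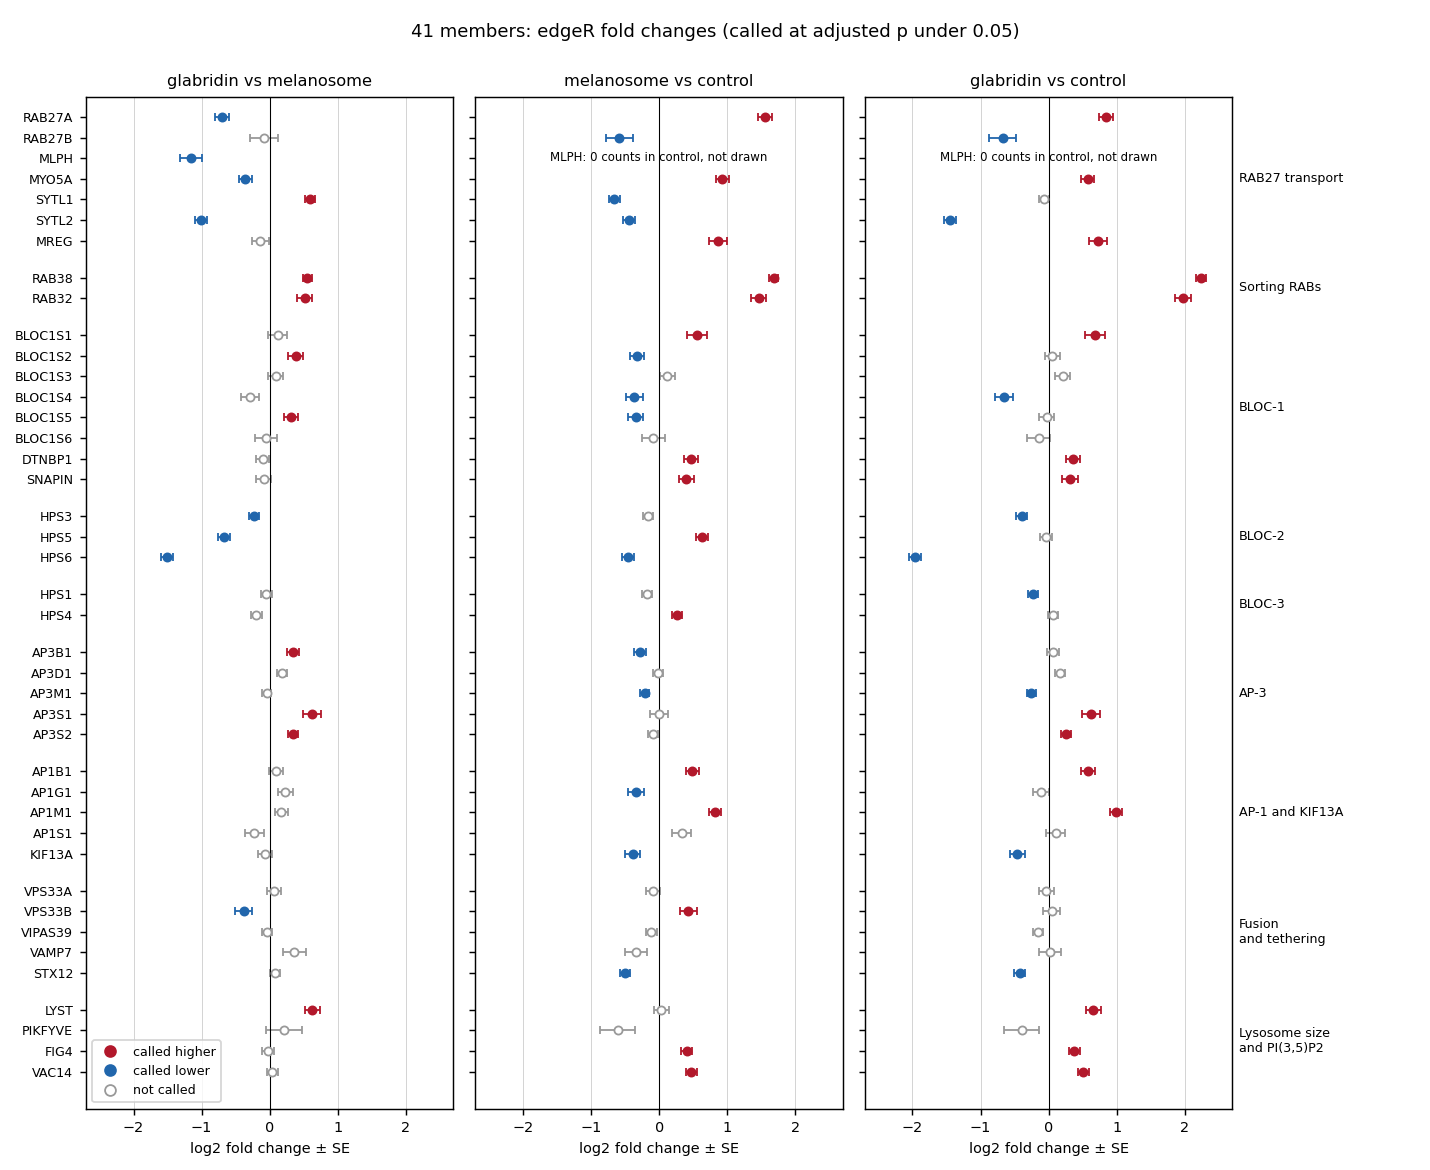
Log2 fold change ± SE from edgeR for each gene in glabridin vs melanosome, melanosome vs control and glabridin vs control, grouped by role; filled points were called at an adjusted p under 0.05. The 3 genes of BLOC-2 lie left of 0 in glabridin vs melanosome, RAB38 and RAB32 lie right of 0 in every panel, and MLPH is not drawn against control, where it had 0 counts.

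The transport complex of RAB27A, MLPH and MYO5A was higher in both groups given melanosomes than in control, and lower in glabridin than in melanosome libraries. RAB27A (chr15:55202966-55319113, minus strand, GRCh38) encodes the GTPase that marks mature melanosomes for transport. It had 34.0, 41.7 and 43.3 CPM in glabridin libraries and 69.9, 63.0 and 60.7 CPM in melanosome libraries, against 21.3, 21.3 and 23.6 CPM in control libraries. The 3 groups did not overlap, and the glabridin libraries lay between the others. The log2 fold change was 1.55 ± 0.10 (SE) with melanosomes over control (edgeR adjusted p 5.15e-07) and -0.70 ± 0.10 with glabridin over melanosome (adjusted p 0.000282), with 3 of 3 libraries beyond those of the other group each time. A log2 fold change of 0.85 ± 0.10 over control was left in the glabridin libraries (adjusted p 2.73e-05). RAB27A shares 183 bases of exon with PIGBOS1 on its own strand and 154 with PIGB on the other strand, and the labels do not say how the counting treated strand.

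MLPH (chr2:237485428-237555318, plus strand) encodes melanophilin, which ties RAB27A to the motor. It had 6.35, 8.19 and 5.39 CPM in glabridin libraries and 13.5, 14.9 and 15.8 CPM in melanosome libraries, while all control libraries had 0 counts. Against a floor of 3 counts over the control group, equal to 0.0234 CPM, it was at least 281-fold higher in glabridin and at least 631-fold higher in melanosome libraries. Every glabridin library lay below every melanosome library, with a log2 fold change of -1.15 ± 0.16 (adjusted p 0.000528). MLPH was the only one of the 41 genes with 0 counts in a control library. In bulk RNA, fewer cells of a type and less RNA per cell cannot be told apart.

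MYO5A (chr15:52307283-52529050, minus strand) encodes the actin motor. It had 38.2, 36.0 and 46.5 CPM in glabridin libraries and 54.4, 48.5 and 51.8 CPM in melanosome libraries, against 26.3, 27.2 and 27.8 CPM in control libraries. The groups again did not overlap, although the highest glabridin and the lowest melanosome library were close. With melanosomes it rose by a log2 fold change of 0.93 ± 0.10 (adjusted p 1.66e-05), and it was lower with glabridin than with melanosomes alone by -0.36 ± 0.10 (adjusted p 0.0121). This last call was lost without melanosome replicate 1 (adjusted p 0.0504). Over control, the glabridin libraries stayed higher by 0.57 ± 0.10 (adjusted p 0.00036).

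**Figure D3:**
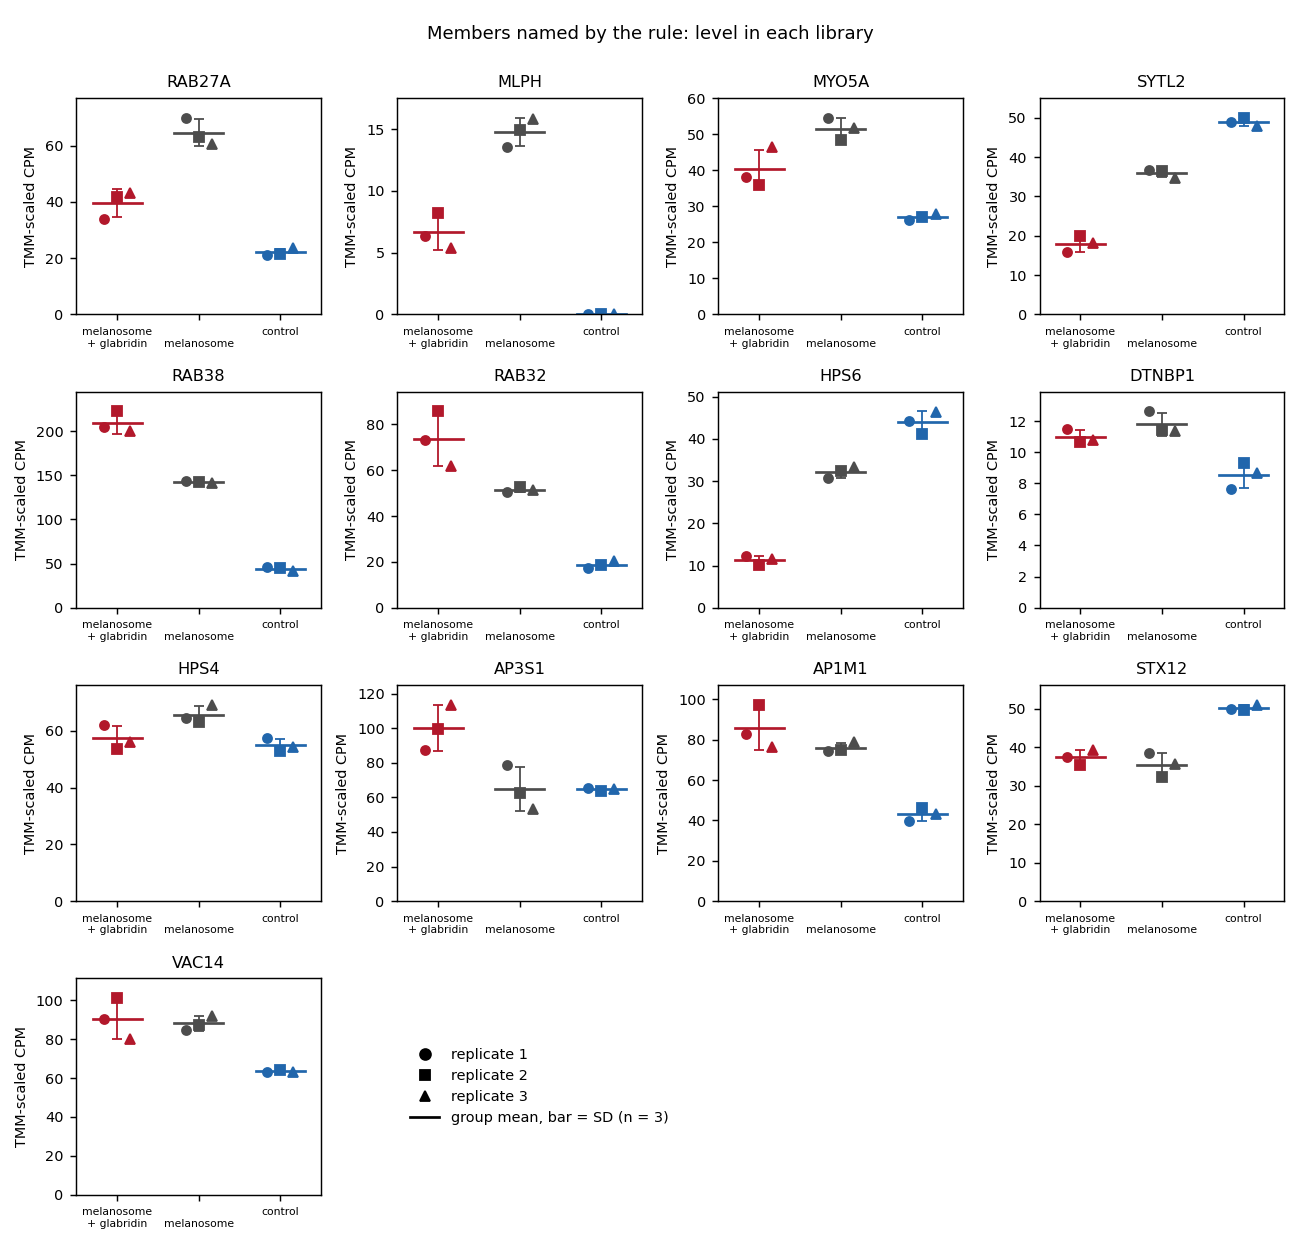
TMM-scaled CPM in each library for 13 genes (circle, square and triangle are replicates 1, 2 and 3, the line is the group mean and the bar its SD), with glabridin, melanosome and control from left to right. RAB27A, MLPH and MYO5A peak in melanosome libraries, RAB38 and RAB32 are highest in glabridin libraries, and SYTL2 and HPS6 are lowest there.

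Besides RAB27A, MLPH and MYO5A, the genes HPS5 and VPS33B were called higher with melanosomes and lower with glabridin against melanosome. These 5 are 12.2% of the 41 genes, beside 6.16% of all genes tested with that pair of calls. Both comparisons use the melanosome libraries, so a low or high value there moves them in opposite directions. The promoter windows of 4 of these genes, from RefSeq on GRCh38.p14 and each 300 bases long with the start site after base 250, are shown because their transcripts moved together; VPS33B is named only. Capitals mark CACGTG, the palindromic E-box. The MLPH window is chr2:237487001-237487300 on the plus strand, the RAB27A window chr15:55319074-55319373, the MYO5A window chr15:52529001-52529300 and the HPS5 window chr11:18322091-18322390, all 3 on the minus strand.
MLPH: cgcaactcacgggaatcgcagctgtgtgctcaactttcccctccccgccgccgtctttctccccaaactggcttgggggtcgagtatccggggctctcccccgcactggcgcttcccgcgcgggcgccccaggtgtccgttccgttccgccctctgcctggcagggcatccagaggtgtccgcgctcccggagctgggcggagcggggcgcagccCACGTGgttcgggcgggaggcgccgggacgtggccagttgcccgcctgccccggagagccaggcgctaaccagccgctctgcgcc
RAB27A: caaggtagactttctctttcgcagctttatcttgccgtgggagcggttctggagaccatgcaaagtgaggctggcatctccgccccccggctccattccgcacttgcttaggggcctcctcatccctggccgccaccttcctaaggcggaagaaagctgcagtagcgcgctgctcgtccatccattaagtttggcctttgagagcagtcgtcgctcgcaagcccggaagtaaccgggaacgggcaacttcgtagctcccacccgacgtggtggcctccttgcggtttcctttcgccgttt
MYO5A: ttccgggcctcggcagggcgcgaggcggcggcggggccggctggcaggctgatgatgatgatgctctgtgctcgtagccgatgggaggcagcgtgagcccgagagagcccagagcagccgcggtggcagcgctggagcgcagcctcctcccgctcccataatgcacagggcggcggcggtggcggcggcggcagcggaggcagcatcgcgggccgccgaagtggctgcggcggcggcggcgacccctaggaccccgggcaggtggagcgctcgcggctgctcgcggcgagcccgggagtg
HPS5: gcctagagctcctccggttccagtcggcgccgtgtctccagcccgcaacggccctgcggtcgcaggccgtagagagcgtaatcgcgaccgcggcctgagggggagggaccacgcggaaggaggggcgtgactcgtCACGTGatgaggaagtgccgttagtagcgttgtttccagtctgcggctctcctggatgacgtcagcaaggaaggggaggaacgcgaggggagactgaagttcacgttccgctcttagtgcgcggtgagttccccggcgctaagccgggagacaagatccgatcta

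The match in MLPH lay 35 bases before the start site and that in HPS5 115 bases before it, and the RAB27A and MYO5A windows held none. Only the first listed window of each gene is shown. Another MLPH window, chr2:237486160-237486459, held no CACGTG, and neither did the further RAB27A windows. Of 57 windows listed for 32 of the 41 genes, 6 held CACGTG (10.5%), beside 7.26% of all 35116 windows; they belong to MLPH, HPS5, HPS3, BLOC1S1, VAC14 and BLOC1S3. TCATGTG, the core of the M-box bound by MITF, was found on either strand in 2 of the 57 windows (3.51%), in VAC14 and BLOC1S3, beside 2.92% of all windows. No stretch of letters can belong to both motifs, and a match is a description of the letters in this window. The share of G and C was 72.7% in MLPH, 59.3% in RAB27A, 76.0% in MYO5A and 64.0% in HPS5. Over the first windows of 27305 genes the quartiles are 46.7%, 58.3% and 67.7%, so MLPH and MYO5A lay above the middle range and RAB27A and HPS5 within it. The windows held 34, 23, 41 and 33 CpG in the same order, beside a median of 14.

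RAB27B and the effectors SYTL1 and SYTL2 were called lower with melanosomes, unlike RAB27A, and MREG was called higher. SYTL2 (chr11:85694224-85811159, minus strand) encodes a synaptotagmin-like effector that binds RAB27A and docks melanosomes at the plasma membrane. It had 15.8, 19.8 and 18.3 CPM in glabridin libraries and 36.8, 36.6 and 34.8 CPM in melanosome libraries, against 48.9, 49.99 and 48.0 CPM in control libraries. Each step was downward with no overlap: -0.44 ± 0.09 with melanosomes over control (adjusted p 0.0012) and -1.01 ± 0.09 with glabridin over melanosome (adjusted p 9.37e-06). SYTL1, a related RAB27 effector, moved the other way under glabridin. Its mean was 46.8 ± 3.21 CPM in glabridin and 31.0 ± 1.23 CPM in melanosome libraries, against 48.97 ± 2.47 CPM in control libraries (SD, n = 3 each). It was called lower with melanosomes (log2 fold change -0.66 ± 0.08, adjusted p 3.42e-05) and higher with glabridin against melanosome (0.59 ± 0.08, adjusted p 0.000145), and was not called between glabridin and control (-0.07 ± 0.08, adjusted p 0.448).

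RAB27B, the close relative of RAB27A that serves secretion in many epithelia, averaged 11.2 ± 3.61 CPM in glabridin and 11.9 ± 2.0 CPM in melanosome libraries, against 17.9 ± 1.37 CPM in control libraries. It was called lower with melanosomes (-0.59 ± 0.20, adjusted p 0.0248), and the call was lost without any 1 of 4 libraries (control replicates 1 and 3, melanosome replicates 2 and 3; adjusted p up to 0.1). As a ratio of TPM, RAB27A stood 6.23 ± 1.54 times above RAB27B in glabridin and 9.22 ± 1.02 times in melanosome libraries, against 2.07 ± 0.177 times in control libraries. MREG, melanoregulin, takes part in the movement and release of melanosomes. It averaged 51.4 ± 11.3 CPM in glabridin and 56.5 ± 3.59 CPM in melanosome libraries, against 31.0 ± 1.29 CPM in control libraries, and was called higher with melanosomes (0.87 ± 0.13, adjusted p 0.000227). Its libraries overlapped between glabridin and melanosome (-0.14 ± 0.13, adjusted p 0.418), and it was called lower there without glabridin replicate 2 (-0.33, adjusted p 0.00229) and with limma on log2(TPM + 1) (-0.33, adjusted p 0.0271).

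RAB38 and RAB32 are the related GTPases that send tyrosinase and its kin from endosomes to the melanosome. They rose with melanosomes and stood higher again with glabridin, unlike the RAB27A complex. RAB38 (chr11:88113242-88175467, minus strand) had 204, 222 and 200.2 CPM in glabridin libraries and 144, 142 and 141 CPM in melanosome libraries, against 46.2, 45.4 and 41.1 CPM in control libraries. Its log2 fold change was 1.69 ± 0.07 with melanosomes over control (adjusted p 1.2e-08) and 0.55 ± 0.06 with glabridin over melanosome (adjusted p 6.77e-05). RAB32 (chr6:146543693-146554965, plus strand) had 73.3, 85.7 and 61.8 CPM in glabridin libraries and 50.5, 52.6 and 51.2 CPM in melanosome libraries, against 17.2, 18.5 and 20.4 CPM in control libraries. Its log2 fold change was 1.46 ± 0.11 with melanosomes over control (adjusted p 1.79e-06) and 0.52 ± 0.11 with glabridin over melanosome (adjusted p 0.00343). For both genes the 3 groups were ordered with no overlap, and both calls held under every scaling tried and without each library in turn. Against control, the glabridin libraries were higher by a log2 fold change of 2.24 ± 0.07 for RAB38 and 1.98 ± 0.12 for RAB32. The TPM ratio of RAB38 to RAB32 was 2.39 ± 0.274 in glabridin, 2.30 ± 0.0651 in melanosome and 1.98 ± 0.284 in control libraries, so the pair stayed close in proportion. RAB38 and RAB32 are 4.88% of the 41 genes, beside 6.61% of all genes called higher in both comparisons.

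BLOC-1 is an octamer that shapes the tubules carrying cargo from endosomes to melanosomes. Of its 8 subunits, 3 were called higher (BLOC1S1, DTNBP1 and SNAPIN), 3 lower (BLOC1S2, BLOC1S4 and BLOC1S5) and 2 not called (BLOC1S3 and BLOC1S6) with melanosomes over control. DTNBP1, dysbindin (chr6:15522801-15663058, minus strand), had 11.5, 10.7 and 10.8 CPM in glabridin libraries and 12.6, 11.4 and 11.3 CPM in melanosome libraries, against 7.63, 9.29 and 8.65 CPM in control libraries. Both groups given melanosomes lay above control, and they overlapped each other. The log2 fold change of DTNBP1 was 0.47 ± 0.10 with melanosomes (adjusted p 0.00255) and -0.10 ± 0.10 with glabridin over melanosome (adjusted p 0.433). SNAPIN, which also binds SNARE proteins, averaged 42.2 ± 7.14 CPM in glabridin and 44.9 ± 2.59 CPM in melanosome libraries, against 34.0 ± 2.02 CPM in control libraries, and its log2 fold change with melanosomes was 0.40 ± 0.11 (adjusted p 0.0101). BLOC1S1 was higher by 0.56 ± 0.15 (adjusted p 0.00666), with 494 bases of exon shared with a readthrough gene, BLOC1S1-RDH5.

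The falls in BLOC-1 with melanosomes over control were small. They were -0.32 ± 0.11 for BLOC1S2 (adjusted p 0.0204), -0.37 ± 0.13 for BLOC1S4 (adjusted p 0.028) and -0.35 ± 0.11 for BLOC1S5 (adjusted p 0.0161), and none of the 3 was called with library totals alone. BLOC1S4 was also not called under RLE factors (adjusted p 0.0594), upper-quartile factors (0.0621) or by DESeq2 (0.053). Each was also lost when single libraries were left out: 3 libraries for BLOC1S2, 5 for BLOC1S4 and 4 for BLOC1S5, with adjusted p up to 0.0729, 0.0926 and 0.0718. With glabridin over melanosome, BLOC1S2 (0.38 ± 0.11, adjusted p 0.0136) and BLOC1S5 (0.32 ± 0.11, adjusted p 0.0344) were called higher and the other 6 were not called. Neither call was made with upper-quartile factors, with library totals alone or with only the 2 groups compared, nor that of BLOC1S5 with RLE factors (adjusted p 0.0643). The BLOC1S2 call was lost without melanosome replicate 2 or glabridin replicate 1 (adjusted p up to 0.0869) and the BLOC1S5 call without any 1 of 5 libraries (adjusted p up to 0.177). BLOC1S5 averaged 23.4 ± 1.48 CPM in glabridin and 18.8 ± 1.78 CPM in melanosome libraries, against 23.9 ± 2.53 CPM in control libraries. On its own strand BLOC1S5 shares 375 bases of exon with EEF1E1-BLOC1S5 and 372 with BLOC1S5-TXNDC5. BLOC1S2 averaged 20.2 ± 2.8 CPM in glabridin and 15.5 ± 0.514 CPM in melanosome libraries, against 19.4 ± 0.653 CPM in control libraries. The glabridin and control libraries overlapped for both genes. With glabridin over control BLOC1S4 was lower by -0.66 ± 0.13 (adjusted p 0.000935), a call that held under every scaling and without each library in turn. With glabridin over melanosome BLOC1S4 was called lower with upper-quartile factors (adjusted p 0.0254), library totals alone (0.0155) and DESeq2 (0.039). It was also called lower there with limma and without glabridin replicate 1 (0.00798), and in no other alternative.

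BLOC-2, made of HPS3, HPS5 and HPS6, guides transport tubules to the maturing melanosome. All 3 genes were called lower with glabridin than with melanosomes alone, where 20.2% of all genes were. Its summed TPM was 47.0 ± 5.08 in glabridin and 88.7 ± 3.95 in melanosome libraries, against 87.3 ± 4.30 in control libraries. Like the other TPM sums, this one carries no TMM factors. HPS6 (chr10:102065390-102068038, plus strand) had 12.1, 10.1 and 11.6 CPM in glabridin libraries and 30.7, 32.4 and 33.2 CPM in melanosome libraries, against 44.3, 41.2 and 46.4 CPM in control libraries. No libraries overlapped between groups. The log2 fold change was -0.45 ± 0.09 with melanosomes over control (adjusted p 0.0012), -1.51 ± 0.09 with glabridin over melanosome (adjusted p 8.03e-07) and -1.96 ± 0.09 with glabridin over control (adjusted p 2.44e-08), the largest fall of any of the 41 genes in the comparisons with glabridin.

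HPS5 averaged 24.7 ± 1.44 CPM in glabridin and 39.3 ± 2.66 CPM in melanosome libraries, against 25.4 ± 1.93 CPM in control libraries. It was called higher with melanosomes (0.63 ± 0.09, adjusted p 0.000137) and lower with glabridin over melanosome (-0.67 ± 0.09, adjusted p 0.000169), and glabridin and control libraries overlapped (-0.04 ± 0.09, adjusted p 0.711). HPS3 averaged 45.8 ± 4.27 CPM in glabridin and 53.6 ± 2.64 CPM in melanosome libraries, against 60.2 ± 2.11 CPM in control libraries. Its fall with glabridin over melanosome was -0.23 ± 0.08 (adjusted p 0.0371), and the call was lost without any 1 of the 6 control and melanosome libraries (adjusted p up to 0.128) and with only the 2 groups compared (adjusted p 0.0631). HPS3 shares 1418 bases of exon with CP on the other strand. Between melanosome and control libraries, the 3 genes of this complex thus differed in direction, with 1 called higher, 1 lower and 1 not called.

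BLOC-3, the pair of HPS1 and HPS4, switches RAB32 and RAB38 on. Its 2 genes had small log2 fold changes beside those of RAB32 and RAB38. HPS4 (chr22:26443423-26483837, minus strand) had 62.2, 53.6 and 56.3 CPM in glabridin libraries and 64.5, 63.1 and 69.3 CPM in melanosome libraries, against 57.4, 53.0 and 54.2 CPM in control libraries. It was called higher with melanosomes over control (0.26 ± 0.07, adjusted p 0.0112), not so without melanosome replicate 3 (adjusted p 0.0513), and its exons share 598 bases with ASPHD2 on the other strand. With glabridin over melanosome its log2 fold change was -0.19 ± 0.07, with no overlap of libraries and an adjusted p of 0.0551. It was called lower there under RLE factors (adjusted p 0.0224), upper-quartile factors (0.00655) and library totals alone (0.00247), by DESeq2 (0.0103), with halved counts (0.0477), with limma, and without glabridin replicate 1 (0.00629). HPS1 averaged 62.4 ± 6.74 CPM in glabridin and 64.7 ± 2.55 CPM in melanosome libraries, against 73.2 ± 1.05 CPM in control libraries, and was not called between melanosome and control (-0.18 ± 0.08, adjusted p 0.0722). It was called lower with glabridin over control (-0.23 ± 0.08, adjusted p 0.0234), a call lost without any 1 of 4 libraries (adjusted p up to 0.0685).

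AP-3 is the adaptor that loads tyrosinase at the endosome and also serves lysosomes in most cells. With glabridin over melanosome, 3 of its 5 subunits were called higher and none lower, where 23.7% and 20.2% of all genes were. AP3S1 (chr5:115841481-115914081, plus strand), a sigma subunit, had 87.3, 99.5 and 113.6 CPM in glabridin libraries and 78.5, 62.7 and 53.2 CPM in melanosome libraries, against 65.6, 64.0 and 64.6 CPM in control libraries. The glabridin libraries lay above all others, and the melanosome libraries spread on both sides of control. Its log2 fold change was 0.63 ± 0.13 with glabridin over melanosome (adjusted p 0.00313) and 0.00 ± 0.13 with melanosomes over control (adjusted p 0.99). AP3S1 shares 378 bases of exon with ATG12 on the other strand, and AP3S2 shares 1953 with the readthrough gene C15orf38-AP3S2 on its own strand. The second sigma subunit, AP3S2, averaged 41.6 ± 2.76 CPM in glabridin and 32.9 ± 1.38 CPM in melanosome libraries, against 34.9 ± 1.43 CPM in control libraries (0.34 ± 0.08 with glabridin over melanosome, adjusted p 0.0044); the call was lost without glabridin replicate 1 (adjusted p 0.0784).

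The beta subunit AP3B1 averaged 75.0 ± 8.59 CPM in glabridin and 59.1 ± 1.67 CPM in melanosome libraries, against 71.7 ± 4.33 CPM in control libraries. It was called lower with melanosomes (-0.28 ± 0.09, adjusted p 0.0155) and higher with glabridin over melanosome (0.35 ± 0.09, adjusted p 0.00767). Neither call was made with library totals alone, and the first was lost without control replicate 1, melanosome replicate 2 or glabridin replicate 1 (adjusted p up to 0.0687). AP3D1, the delta subunit, averaged 224 ± 19.3 CPM in glabridin and 198 ± 11.4 CPM in melanosome libraries, against 200.2 ± 1.27 CPM in control libraries, and was called in no comparison. AP3M1, the mu subunit, was called lower with melanosomes (-0.21 ± 0.07, adjusted p 0.0201), a call lost under each of the 3 other scalings and without any 1 of 6 libraries (adjusted p up to 0.0878). It shares 1109 bases of exon with VCL on the other strand.

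AP-1 works in a parallel route with the kinesin KIF13A, which draws endosomal tubules to the melanosome. None of these 5 genes was called between glabridin and melanosome in the main test. Without glabridin replicate 2, AP1G1 was called higher there (adjusted p 0.000148) and AP1S1 lower (0.000402). Without glabridin replicate 3, AP1M1 was called higher (0.0252) and KIF13A lower (0.0489). AP1S1 was also called lower with library totals alone (0.0266) and with limma on log2(TPM + 1) (0.00997). AP1M1, the mu subunit (chr19:16197578-16245907, plus strand), had 82.9, 97.4 and 76.5 CPM in glabridin libraries and 74.3, 75.0 and 78.8 CPM in melanosome libraries, against 39.8, 46.1 and 43.2 CPM in control libraries. Both groups given melanosomes lay above control without overlap, and they overlapped each other. The log2 fold change was 0.82 ± 0.09 with melanosomes over control (adjusted p 2.83e-05) and 0.17 ± 0.09 with glabridin over melanosome (adjusted p 0.157). AP1B1, the beta subunit, averaged 247 ± 40.3 CPM in glabridin and 232 ± 12.8 CPM in melanosome libraries, against 165 ± 4.41 CPM in control libraries (0.49 ± 0.10 with melanosomes, adjusted p 0.00166).

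The other genes of this route varied. AP1S1, the sigma subunit, averaged 94.0 ± 23.4 CPM in glabridin and 110.0 ± 7.48 CPM in melanosome libraries, against 87.6 ± 3.04 CPM in control libraries, with a log2 fold change of 0.33 ± 0.14 with melanosomes over control, an adjusted p of 0.0613 and every melanosome library above every control library. It was called higher under RLE factors (adjusted p 0.0383), upper-quartile factors (0.0347) and library totals alone (0.00825), by DESeq2 (0.0269), with only the 2 groups compared, with limma, and without any 1 glabridin library (adjusted p up to 0.0468), but not without any 1 control or melanosome library. AP1G1, the gamma subunit, was lower with melanosomes (-0.34 ± 0.11, adjusted p 0.0211) with 94.3 ± 2.42 CPM in melanosome libraries, against 119 ± 0.882 CPM in control libraries. KIF13A was lower too (-0.39 ± 0.11, adjusted p 0.00894), with 32.4 ± 1.38 CPM in melanosome libraries, against 42.5 ± 0.914 CPM in control libraries. Both calls were lost with library totals alone, and that of AP1G1 also without any 1 of 6 libraries (adjusted p up to 0.0685).

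Of the genes for fusion and tethering, STX12 and VAMP7 encode SNARE proteins that deliver and recycle melanosome cargo. STX12 (chr1:27773183-27824452, plus strand) had 37.5, 35.4 and 39.3 CPM in glabridin libraries and 38.5, 32.3 and 35.5 CPM in melanosome libraries, against 49.9, 49.7 and 51.0 CPM in control libraries. Every library given melanosomes lay below every control library. The log2 fold change was -0.50 ± 0.08 with melanosomes over control (adjusted p 0.000311) and 0.08 ± 0.08 with glabridin over melanosome (adjusted p 0.46). VAMP7 averaged 52.2 ± 13.5 CPM in glabridin and 40.6 ± 6.17 CPM in melanosome libraries, against 51.4 ± 2.59 CPM in control libraries, and was not called. It was called lower with melanosomes over control with only the 2 groups compared (adjusted p 0.0243) and without glabridin replicate 2 (0.026) or 3 (0.0102). Without glabridin replicate 2 it was called higher with glabridin over melanosome (0.00735). VPS33B works with VIPAS39 in sorting to lysosome-related organelles. VPS33B averaged 17.98 ± 3.20 CPM in glabridin and 23.4 ± 1.30 CPM in melanosome libraries, against 17.4 ± 1.11 CPM in control libraries, higher by 0.43 ± 0.12 with melanosomes (adjusted p 0.0107) and lower by -0.38 ± 0.12 with glabridin over melanosome (adjusted p 0.0264). This second call was lost without any 1 of 4 libraries (the 3 melanosome libraries and glabridin replicate 1, adjusted p up to 0.0973). VPS33B shares 2091 bases of exon with an unnamed gene on its own strand. VIPAS39, and VPS33A of the HOPS tether, were called in no comparison, with log2 fold changes between -0.15 and 0.06.

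Lysosome size is set in part by LYST, the gene mutated in Chediak-Higashi syndrome, and by a lipid kinase complex in which VAC14 is the scaffold, PIKFYVE the kinase and FIG4 the phosphatase. VAC14 (chr16:70687439-70801161, minus strand) had 90.2, 101 and 80.1 CPM in glabridin libraries and 84.6, 87.5 and 92.2 CPM in melanosome libraries, against 63.2, 64.1 and 63.0 CPM in control libraries. Both groups given melanosomes lay above control and overlapped each other. The log2 fold change was 0.47 ± 0.08 with melanosomes over control (adjusted p 0.000576) and 0.04 ± 0.08 with glabridin over melanosome (adjusted p 0.733). FIG4 rose with melanosomes by 0.40 ± 0.08 (adjusted p 0.00192), with 18.7 ± 1.01 CPM in glabridin and 19.0 ± 0.469 CPM in melanosome libraries, against 14.4 ± 0.780 CPM in control libraries. PIKFYVE averaged 22.8 ± 10.2 CPM in glabridin and 19.8 ± 1.77 CPM in melanosome libraries, against 30.1 ± 1.66 CPM in control libraries, and was called in no comparison. Every melanosome library still lay below every control library (-0.61 ± 0.26, adjusted p 0.0626). PIKFYVE was called lower there with only the 2 groups compared (adjusted p 4.27e-05) and without glabridin replicate 2 (0.000403) or 3 (0.00677). Without glabridin replicate 2 it was called higher with glabridin over melanosome (0.0043). LYST was called with glabridin and not with melanosomes alone: it averaged 24.8 ± 3.57 CPM in glabridin and 16.01 ± 1.09 CPM in melanosome libraries, against 15.7 ± 0.608 CPM in control libraries, higher by 0.63 ± 0.11 with glabridin over melanosome (adjusted p 0.00104).

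Set side by side, the 2 comparisons sorted the 41 genes as follows. Besides the 5 called higher and then lower, and the 2 called higher in both, 9 were called higher with melanosomes and not called with glabridin over melanosome: MREG, BLOC1S1, DTNBP1, SNAPIN, HPS4, AP1B1, AP1M1, FIG4 and VAC14. The reverse order, lower with melanosomes and higher with glabridin over melanosome, held for SYTL1, BLOC1S2, BLOC1S5 and AP3B1, which is 9.76% of the genes beside 7.12% of all genes. None of these 4 was called between glabridin and control. SYTL2 and HPS6 were lower in both comparisons, 4.88% beside 8.12% of all genes. RAB27B, BLOC1S4, AP3M1, AP1G1, KIF13A and STX12 were lower with melanosomes and not called with glabridin over melanosome. AP3S1, AP3S2 and LYST were called higher, and HPS3 lower, with glabridin over melanosome but not with melanosomes over control. The other 9 genes were called in neither.

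The melanocyte markers, like several of these genes, were higher in both groups given melanosomes than in control. Their summed level was 2196, 3545 and 1802 CPM in glabridin libraries and 3232, 3325 and 3364 CPM in melanosome libraries, against 20.7, 19.8 and 21.9 CPM in control libraries. Leaving out PMEL, the structural protein of the melanosome core and the largest of the markers, the sum was 813, 1184 and 739 CPM in glabridin and 1195, 1203 and 1197 CPM in melanosome libraries, against 17.2, 17.0 and 18.6 CPM in control libraries. Glabridin replicate 2 was the highest of its group for the melanocyte sum and also for MLPH, RAB38 and RAB32. The 16 keratinocyte markers summed to 11090, 12890 and 10160 CPM in glabridin replicates 1, 2 and 3. AP1S1, AP1B1, AP1M1, SNAPIN, MREG, VAC14, HPS1, SYTL2, VPS33B, BLOC1S1, BLOC1S3 and FIG4 were also highest in replicate 2. All other genes of the list were highest in glabridin replicate 1 or 3. For RAB27A the highest was glabridin replicate 3, in which both marker sums were lowest. The cause of these orders was not tested. MITF, a regulator of pigment genes, was lower with glabridin than with melanosomes alone by a log2 fold change of -0.92 ± 0.08 (adjusted p 1.23e-05), with 53.1 ± 2.96 CPM in glabridin and 100.2 ± 9.95 CPM in melanosome libraries. Of other cell types, 8 fibroblast markers summed to 12.9 to 14.8 CPM in glabridin and 18.8 to 20.3 CPM in melanosome libraries, against 42.3 to 45.5 CPM in control libraries. The 4 endothelial markers summed to 3.90 to 4.98 CPM in glabridin and 10.9 to 12.2 CPM in melanosome libraries, against 37.8 to 38.2 CPM in control libraries. The 5 leukocyte markers summed to 105.5 to 119 CPM in glabridin and 69.1 to 77.4 CPM in melanosome libraries, against 57.1 to 61.3 CPM in control libraries, and PTPRC, their defining gene, had 0 counts in every library. Most of each sum was CD68, which encodes a lysosomal protein, with 102 to 114.5 CPM in glabridin and 64.4 to 73.2 CPM in melanosome libraries, against 51.9 to 54.6 CPM in control libraries. The part of the melanocyte transcripts in the changes of MLPH, RAB38, RAB32, RAB27A and the other genes was not tested.

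**Figure D4:**
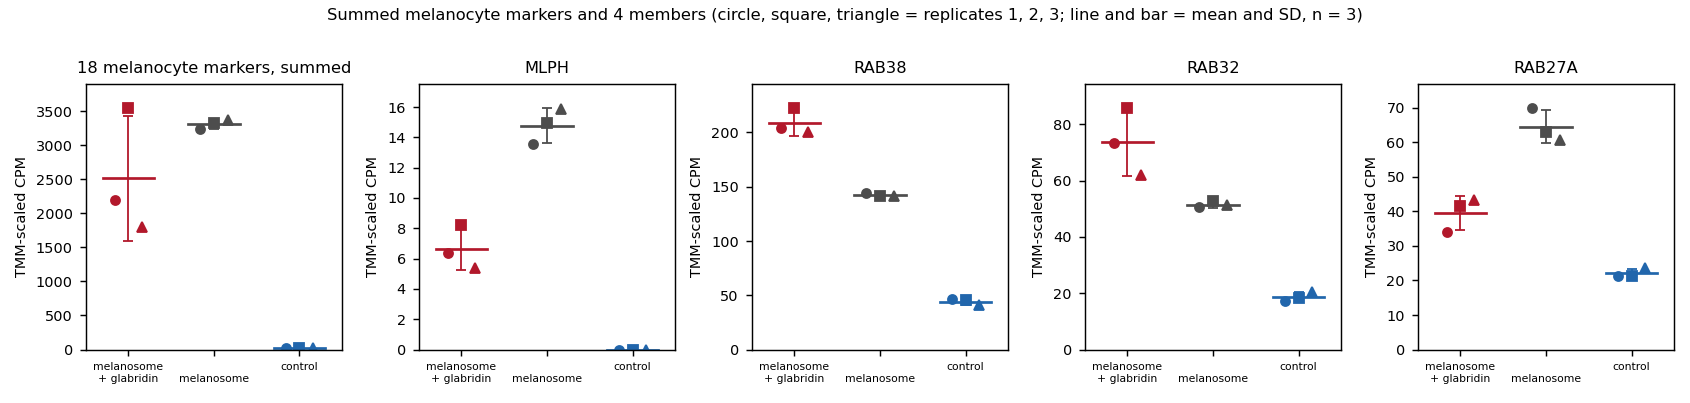
Summed TMM-scaled CPM of 18 melanocyte markers beside MLPH, RAB38, RAB32 and RAB27A in each library (circle, square and triangle are replicates 1, 2 and 3, line and bar are mean and SD, n = 3), with glabridin, melanosome and control from left to right. The marker sum is near 0 in control and overlaps between glabridin and melanosome libraries. Without PMEL (not drawn) it was 739 to 1184 CPM in glabridin and 1195 to 1203 CPM in melanosome libraries, with no overlap. RAB38 and RAB32 lie higher and MLPH and RAB27A lower in glabridin than in melanosome libraries.

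The spread within the glabridin group touched some genes more than others. Between its replicates 3 and 2, 4 of the 41 genes were over 1.5 times higher in replicate 3 and 2 were over 1.5 times higher in replicate 2, with ratios from 0.627 in AP1S1 to 2.66 in PIKFYVE. Over the 41 genes this ratio ran with exon length at a Spearman rho of 0.347, beside 0.286 over 13905 genes; genes are not independent replicates, and the points share these 2 libraries. The log2 fold changes themselves had a rho of -0.05 with exon length in glabridin vs melanosome and -0.11 in melanosome vs control, beside -0.09 and -0.15 over all genes. Between melanosome replicates 1 and 3 no gene differed by over 1.5 times, and the largest ratio was 1.48, in AP3S1.

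Of 43 further genes of the same routes, 42 were tested. With melanosomes over control 16 were called higher and 12 lower, with glabridin over melanosome 7 and 9, and with glabridin over control 14 and 11. Of all genes, 29.5% were higher and 33.0% lower, 23.7% and 20.2%, and 37.6% and 32.7% in these comparisons. The tissue-restricted or alternative adaptor subunits included the largest changes. AP1S2, a second sigma subunit of AP-1, averaged 69.4 ± 12.4 CPM in glabridin and 81.4 ± 12.9 CPM in melanosome libraries, against 5.30 ± 0.782 CPM in control libraries, a log2 fold change of 3.94 ± 0.18 with melanosomes (adjusted p 2.92e-08). AP3B2, the beta subunit of AP-3 best known from neurons, rose by 3.64 ± 0.33 (adjusted p 5.91e-06), while another sigma subunit, AP1S3, fell by 1.21 on the log2 scale (SE 0.13, adjusted p 2.1e-05). Among RAB27 regulators, TBC1D10A, which switches RAB27A off, averaged 101 ± 14.6 CPM in glabridin and 51.0 ± 2.67 CPM in melanosome libraries, against 39.0 ± 1.23 CPM in control libraries, higher by 0.99 ± 0.10 with glabridin over melanosome (adjusted p 2.2e-05). SYTL4, another RAB27 effector, was lower by -1.0 ± 0.12 in the same comparison (adjusted p 0.000101), as was RAB17, a GTPase of recycling endosomes, by -1.45 ± 0.14 (adjusted p 2.32e-05). MYRIP, which links RAB27A to myosins, had 14 counts in glabridin, 6 in melanosome and 2 in control libraries over each group and was not tested.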

How the data were processed

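Poly(A) RNA from 9 HaCaT libraries was sequenced as strand-specific read pairs, per the labels' protocols. Deposited values were raw whole-number counts for every gene and, per the file headers, TPM and FPKM computed by the authors. A second deposited TPM table held the same values, and FPKM was not used. The build is hg38, as the submitters' processing notes name it. No label or header names the aligner, the counting program or how it treated strand. In each library 69.9% to 72.2% of the counts from 1 to 49 were even, and 48.7% to 51.1% of those over 500. Whether read pairs were counted as 2 is unknown. If they were, floors would be too low, and folds set against them would not be minimum values. Floors cover counting error only.

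Groups and replicate numbers came from the sample titles. The main test was edgeR's quasi-likelihood F test (edgeR 4.0.16, R 4.3.3) on counts, with TMM factors and all 9 libraries in 1 fit. filterByExpr, run by group, passed 13912 of 20263 identifiers. Each comparison had its own Benjamini-Hochberg adjustment. SE was derived from the F statistic. Levels are TMM-scaled CPM, and summed or compared genes use deposited TPM. The script was tested on simulated counts. Positions are from GENCODE release 29 (GRCh38) and promoter windows from RefSeq (GRCh38.p14). There were 21 alternatives, among them DESeq2 1.42.0 and limma 3.58.1 on log2(TPM + 1) and log2(TPM + 0.1). Values in every library are given for genes called with a log2 fold change of at least 1 in size, for RAB27A, MLPH and MYO5A, and for the called gene with the smallest p in each complex, all within melanosome vs control or glabridin vs melanosome. The genes, the lists and this rule were chosen with earlier results of these data known.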

Additional observations from a re-analysis of the deposited data

How the results depend on the processing

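With melanosomes over control, 12 of the 41 genes were called lower. This count was 4 with library totals alone, 4 in a test against a fold of 1.2, and 4 and 4 with limma on log2(TPM + 1) and log2(TPM + 0.1), and the 4 were among the 12 each time. It ran from 6 to 16 when single libraries were left out. With glabridin over melanosome, 9 genes were called higher: 5 with library totals alone, 5 against a fold of 1.2, 5 and 5 with limma, and 6 to 13 with a library left out. The 8 called lower became 15 with library totals alone, 5 against a fold of 1.2, 16 and 16 with limma, and 5 to 11 with a library left out; the 8 were among the 15 and among the 16. Library totals alone and limma on TPM moved the median of all genes by 0.17 and 0.18 on the log2 scale in melanosome vs control and by -0.18 and -0.18 in glabridin vs melanosome. The 16 genes called higher with melanosomes ran from 15 to 17 with a library left out, the 16 higher with glabridin over control from 14 to 16 and the 9 lower from 8 to 11. Against a fold of 1.2 the 2 counts with glabridin over control were 12 and 7. In that test HPS4, SNAPIN and VPS33B were not called higher with melanosomes over control (adjusted p 0.419, 0.0893 and 0.075). Library totals alone added BLOC1S3 (adjusted p 0.0391) and AP1S1 (0.00825) to the 16 higher with melanosomes. No called result changed direction in any of the 21 alternatives. A fit with a library left out has fewer degrees of freedom, and the cause of the other moves was not tested.

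Deviations from the group means had correlations from -0.383 to 0.0997 between same-numbered libraries of different groups. Between differently numbered libraries they ran from -0.336 to 0.457. Deviations from means of 3 libraries cannot show whether a number marks a shared batch, and no label says that it does. With a replicate block, 17 genes were called higher and 12 lower with melanosomes, 8 and 7 with glabridin over melanosome, and 16 and 9 with glabridin over control. In this fit AP1S1 was called higher with melanosomes (adjusted p 0.0276), and with glabridin over melanosome HPS3 (adjusted p 0.0617) and BLOC1S5 (adjusted p 0.0599) were not called, while no other call changed. Groups of 3 libraries, and genes under 10 CPM such as MLPH, limit the precision.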
